A study of Mus musculus with 12 samples.

Results

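The 10 genes described here are the microglial markers *Cx3cr1*, *P2ry12*, *Tmem119*, *Csf1r*, *Aif1*, *Itgam*, *C1qa*, *C1qb*, *C1qc* and *Trem2*. They were taken as a fixed list of symbols, matched by Entrez identifier, from 27179 genes listed in each count file. All 10 passed the filter on low counts, as did 14185 genes in total.

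RNA sequencing was performed on primary hippocampal neuron cultures from newborn mice, labelled C57BL/6 (the study's methods also name FVB mice), after 17 to 18 days in culture. The cells were grown on Transwell inserts, porous membranes that let neurites grow through while the cell bodies stay on top. Cultures received 10 µM MG132, a proteasome inhibitor, for 7 h or served as Ctrl (vehicle), and somas and neurites were harvested apart, giving Ctrl somas, MG132 somas, Ctrl neurites and MG132 neurites with 3 libraries each. The labels name no genotype or transgene. Per the study's methods, somas were scraped off, and the membrane was then cut out and put in lysis buffer to harvest the neurites. Each fraction is a bulk harvest, and material left on the membrane after scraping may be part of the neurite fraction. The labels do not say whether replicates were separate cultures, so p-values measure the spread between these libraries, which may be technical.

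Microglia are the resident macrophages of the brain. They depend on signalling through the receptor CSF1R, sense the neuronal chemokine fractalkine through CX3CR1 and extracellular nucleotides through P2RY12, and take up debris and synaptic material tagged by complement. Most of the genes below serve to recognise these cells in brain tissue, although macrophages outside the brain share several of them.

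Between 4247610 and 22166347 reads were counted per library. The mitochondrial genes took 9.78 to 29.2% of them, and a single other gene took 12.4 to 33.4%. As a check of the labelled cells, all 10 neuron markers were tested and their summed level was 891 to 1751 CPM (counts scaled to library size with TMM factors) over the 12 libraries. Astrocyte markers summed to 2543 to 26166 CPM and oligodendrocyte lineage markers to 568 to 23262 CPM, so the cultures held glial RNA in every library. Of 13 markers of border macrophages, monocytes and neutrophils, 4 passed the filter, and *Cd209f*, *Ly6c2*, *Ly6g* and *S100a9* had no read. In Ctrl somas *Mrc1* of this list had a mean of 53.7 CPM, *Ms4a7* 44.1, *F13a1* 11.2 and *Pf4* 8.18. Among 7 lymphocyte markers 1 passed, and *Cd3g* and *Cd8a* had no read. The microglial gene *Siglech* also had no read, which allows at most 0.123 to 0.793 CPM per library for 3 counts, counting error only.

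PU.1, encoded by *Spi1*, is a transcription factor of the macrophage lineage, and its core motif was looked up in the promoters. Whether PU.1 has a part in the changes below was not tested. The motif GAGGAAG, searched on both strands from 250 bases before to 50 bases after the gene start (RefSeq, GRCm38.p6), was present in 3 of the 7 members with a promoter sequence and in 15.4% of all genes with one. The windows below show the match upstream of the start in capitals, on the gene's strand, 5′ to 3′; CTTCCTC is the same motif read on the other strand.
Itgam, chr7:128062545-128062573: gttttctcccgGAGGAAGgctacagaggg
C1qc, chr4:136893091-136893119: gacggcagacaCTTCCTCattttggcaca
Trem2, chr17:48346349-48346377: agcctcctttcCTTCCTCcctccctcacg
These matches lie 84, 194 and 41 bases before the start used for each promoter. For *C1qc* that start lies inside the whole gene span given below and not at its end. The matches describe letters in the window and not a bound site.

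The member genes lie on 7 mouse chromosomes (GRCm38, whole gene spans of RefSeq). Strands, exon overlaps and shared windows are from GENCODE M21. The complement genes are neighbours on chromosome 4, with *C1qb* at chr4:136880126-136886200, *C1qc* at chr4:136889801-136892936 and *C1qa* at chr4:136895916-136898844, all on the minus strand. *Aif1* (chr17:35170986-35176083, minus) and *Trem2* (chr17:48346401-48352276, plus) share chromosome 17. *Cx3cr1* is at chr9:120048683-120068296 (minus), *P2ry12* at chr3:59216271-59262985 (minus), *Tmem119* at chr5:113793729-113800396 (minus), *Itgam* at chr7:128062640-128118491 (plus) and *Csf1r* at chr18:61105572-61131139 (plus). Exons of 4 of them overlap another gene. Those of *Csf1r* overlap *Hmgxb3* on the other strand over 17.3% of its 75-base windows, *P2ry12* exons overlap *Med12l* on the other strand, and 71.7% of *Itgam* windows are shared with the same-strand model *Gm49368*. *Cx3cr1* shares 0.113% of its windows with *Gm33858* on the other strand. The reads were counted with default parameters, and the methods name no strand setting beyond that.

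Levels per length (CPM divided by exon length in kilobases, RPKM) put *C1qa* and *C1qc* first in every group. In Ctrl somas *C1qa* had 191 ± 47.2 RPKM (SD, n = 3) and *C1qc* 118 ± 20.2, followed by *Cx3cr1* with 50.4 ± 2.71. *C1qb* (36.7 ± 8.06) and *Trem2* (34.9 ± 5.58) came next and overlapped in range. *Csf1r* (24.6 ± 2.41), *Itgam* (15.1 ± 4.12) and *Aif1* (8.17 ± 0.759) each lay below the gene before without overlap, and *P2ry12* (4.51 ± 1.27) overlapped *Tmem119* (3.14 ± 1.17) at the bottom. After MG132 *Cx3cr1*, which ranked 3 of 10 in Ctrl somas, ranked 9 of 10 in somas with 0.845 ± 0.528 RPKM and overlapped both *Tmem119* (1.01 ± 1.03) and *P2ry12* (0.746 ± 0.186). In Ctrl neurites *C1qa* (211 ± 67.7), *C1qc* (138 ± 36.8), *Cx3cr1* (70.1 ± 35.2), *C1qb* (42.1 ± 11.4), *Aif1* (39.9 ± 27.4) and *Trem2* (37.8 ± 9.68) formed a chain in which each overlapped the next. In MG132 neurites *Cx3cr1* again ranked 9 of 10 with 1.23 ± 0.340 RPKM, above *P2ry12* with 0.337 ± 0.140.

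The first comparison asked how the marker genes respond to proteasome inhibition in each fraction. All 10 had a lower mean after MG132 in somas and in neurites, and each was lower in 3 of 3 same-numbered pairs of libraries in both fractions. The share of all genes lower in 3 of 3 pairs was not computed, so this describes the 10 genes only. At an adjusted p under 0.01 (quasi-likelihood test of edgeR, Benjamini-Hochberg adjusted over 14185 genes), *Cx3cr1*, *P2ry12*, *Csf1r* and *Trem2* fell in somas, that is 4 of 10 genes where 5.72% of all genes fell. In neurites the same 4 and *C1qa* and *C1qc* fell, 6 of 10 where 5.67% of all genes did. None of the 10 rose by edgeR or DESeq2, against 9.52% of all genes in somas and 9.76% in neurites. The median log2 fold change of the 10 was -1.24 in somas and -1.53 in neurites, beside -0.070 and -0.16 over all genes tested.

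Libraries with the same number deviated together, and with the replicate number as a block 9 of the 10 genes fell in somas and 9 in neurites, all but *Tmem119*. In that fit 11% of all genes fell in somas and 11.4% in neurites. The file name of MG132 neurites replicate 3 carries another date than those of the other libraries of its number, and the block without it, added after seeing the data, also called 9 of 10 lower in neurites, where 6.52% of all genes fell. With 1 library left out and no block, the count in neurites ranged from 3 to 6, and it was 3 without MG132 neurites replicate 1, without Ctrl neurites replicate 2 and without Ctrl neurites replicate 3. Over all genes 409 to 589 were lower with 1 library left out, against 804 of 14185 with all libraries. *Cx3cr1*, *P2ry12* and *Csf1r* passed in each of these 6 fits, *C1qc* and *Trem2* in 2 of 6, *C1qa* in 1 of 6 and *Aif1* in 1 of 6. In a bulk fraction, fewer microglia and less RNA per microglial cell cannot be told apart.

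**Figure D1:**
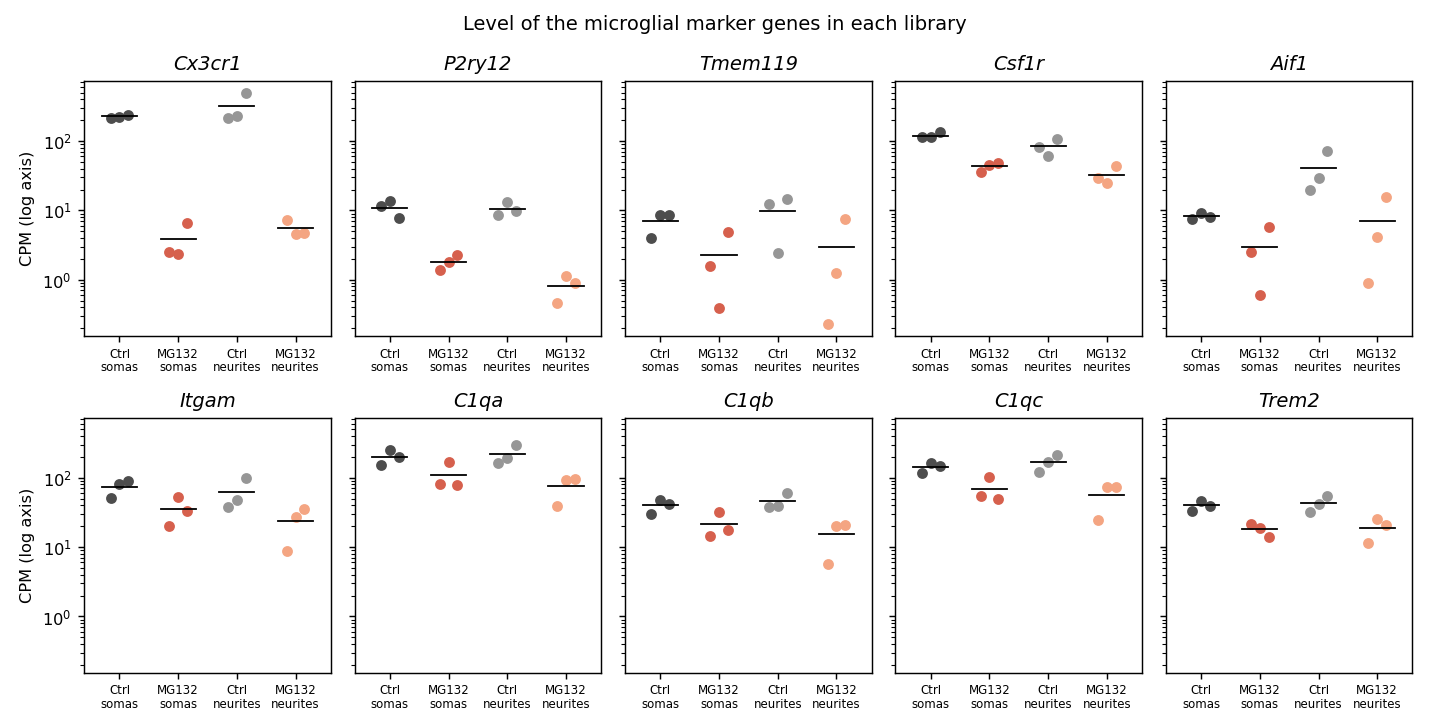
Level of each microglial marker gene in CPM on a log axis, one panel per gene, with a point for each of the 3 libraries per group in order of replicate number and a line at the mean. Every *Cx3cr1* point after MG132 is at or below 7.29 CPM and every Ctrl point is above 215 CPM.

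*Cx3cr1*, the fractalkine receptor, had the largest fold change of the 10 in both fractions. The Ctrl somas held 216, 225 and 240.001 CPM in replicates 1 to 3, and the MG132 somas 2.49, 2.38 and 6.55. In neurites the Ctrl libraries held 218, 231 and 499 CPM, and the MG132 libraries 7.29, 4.52 and 4.79. The groups did not overlap in either fraction. The level was 54.7-fold lower in somas (log2 fold change -5.77, SE 0.43, adjusted p = 6.66e-07) and 59.0-fold lower in neurites (-5.88, SE 0.43, adjusted p = 7.36e-07). The raw counts behind these values were 2031 to 3128 in Ctrl somas, 12 to 160 in MG132 somas, 826 to 2970 in Ctrl neurites and 27 to 100 in MG132 neurites.

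*P2ry12* encodes the purinergic receptor that guides microglial processes to sites of injury. Ctrl somas held 11.5, 13.8 and 7.71 CPM, and MG132 somas 1.39, 1.78 and 2.29. Ctrl neurites held 8.46, 13.3 and 9.91 CPM, and MG132 neurites 0.456, 1.13 and 0.887, from 2, 25 and 5 reads. Neither pair of groups overlapped. *P2ry12* fell by 2.57 on the log2 scale in somas (SE 0.43, adjusted p = 5.20e-04) and by 3.55 in neurites (SE 0.47, adjusted p = 6.91e-05).

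*Csf1r* encodes the receptor for CSF1 and IL-34 on which microglial survival depends. Ctrl somas held 114, 113 and 134 CPM, and MG132 somas 36.1, 45.2 and 48.7. In neurites the 3 Ctrl libraries held 83.3, 61.7 and 106 CPM, and the MG132 libraries 28.9, 24.8 and 44.0. All MG132 libraries were below all Ctrl libraries of their fraction. The gene was 2.77-fold lower in somas (-1.47, SE 0.24, adjusted p = 4.33e-04) and 2.58-fold lower in neurites (-1.37, SE 0.24, adjusted p = 7.46e-04).

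*Trem2*, a lipid-sensing receptor of microglia that signals through the adaptor TYROBP, held 33.7, 46.4 and 39.6 CPM in Ctrl somas and 21.4, 19.0 and 13.8 in MG132 somas. Ctrl neurites held 32.5, 42.4 and 54.6 CPM, and MG132 neurites 11.4, 25.3 and 20.8. The groups did not overlap. *Trem2* fell by 1.15 in somas (SE 0.29, adjusted p = 0.00909) and by 1.16 in neurites (SE 0.29, adjusted p = 0.00887). Both values lie close to the threshold, and the soma call did not hold when any 1 of the 6 soma libraries was left out (adjusted p up to 0.0495).

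*C1qa*, *C1qb* and *C1qc* encode the chains of C1q, which starts the classical complement cascade. *C1qa* held 151, 249 and 196 CPM in Ctrl somas, and 80.0, 166 and 77.4 in MG132 somas, so that the groups overlapped. In neurites it held 164, 195 and 299 CPM in Ctrl and 38.7, 92.3 and 97.4 after MG132, without overlap. *C1qa* fell in neurites (-1.52, SE 0.36, adjusted p = 0.00623), while its soma value of -0.89 (SE 0.36) did not pass (adjusted p = 0.0796). With the replicate block the soma value was -0.91 with an adjusted p of 0.00203.

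*C1qc* held 116, 163 and 148 CPM in Ctrl somas and 55.3, 104 and 50.1 in MG132 somas. In Ctrl neurites it held 122, 166 and 211 CPM, and in MG132 neurites 24.4, 74.5 and 72.9. No group overlapped its counterpart. The gene fell in neurites (-1.53, SE 0.37, adjusted p = 0.00622) and its soma value was -1.04 (SE 0.36, adjusted p = 0.0444). *C1qb* gave -0.93 in somas (SE 0.40, adjusted p = 0.0959) and -1.53 in neurites (SE 0.40, adjusted p = 0.0115), from 30.4 to 47.7 CPM in Ctrl somas and 37.5 to 60.0 in Ctrl neurites. With the block *C1qb* and *C1qc* both passed in somas (adjusted p = 0.00595 and 5.86e-04), and *C1qb* passed in neurites (6.27e-05).

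The 3 C1q genes kept close proportions in every library. *C1qa* took 48.6 to 56.3% of their summed counts, *C1qb* 8.28 to 11.99% and *C1qc* 34.3 to 41.5%. Over the 12 libraries, the deviations of the 3 genes from their group means, in log2 CPM, had Pearson correlations of 0.96 to 0.97 with each other. *Itgam* had 0.91 to 0.95 with them and *Cx3cr1* -0.30 to -0.20. These correlations share library and depth and are given as a description.

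*Aif1* encodes the calcium-binding protein IBA1, the usual immunostaining marker of microglia. Ctrl somas held 7.59, 9.08 and 8.04 CPM and MG132 somas 2.49, 0.594 and 5.73. Ctrl neurites held 19.8, 29.2 and 71.7 CPM and MG132 neurites 0.912, 4.11 and 15.8. The groups did not overlap in either fraction, and the libraries within a group spread widely. The log2 fold change was -1.33 in somas (SE 0.73, adjusted p = 0.196) and -2.55 in neurites (SE 0.74, adjusted p = 0.0189). With the block it passed in both, at -1.71 in somas (adjusted p = 0.00639) and -2.69 in neurites (adjusted p = 4.94e-05).

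*Itgam*, the CD11b subunit of complement receptor 3, ranged from 51.7 to 90.4 CPM in Ctrl somas and 19.9 to 52.3 in MG132 somas. It ranged from 38.1 to 99.6 CPM in Ctrl neurites and 8.66 to 35.3 in MG132 neurites. The soma groups overlapped and the neurite groups did not. Its values of -1.10 in somas (SE 0.46, adjusted p = 0.0863) and -1.36 in neurites (SE 0.46, adjusted p = 0.0410) did not pass, and did so with the block (adjusted p = 6.95e-04 and 1.15e-04). *Tmem119*, a membrane protein used to tell microglia from other macrophages, was low in all groups, with 4.001 to 8.60 CPM in Ctrl somas, 0.396 to 4.83 in MG132 somas, 2.46 to 14.4 in Ctrl neurites and 0.228 to 7.45 in MG132 neurites. Its values of -1.51 (SE 0.90, adjusted p = 0.235) and -1.72 (SE 0.93, adjusted p = 0.188) did not pass, with or without the block, and both pairs of groups overlapped.

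**Figure D2:**
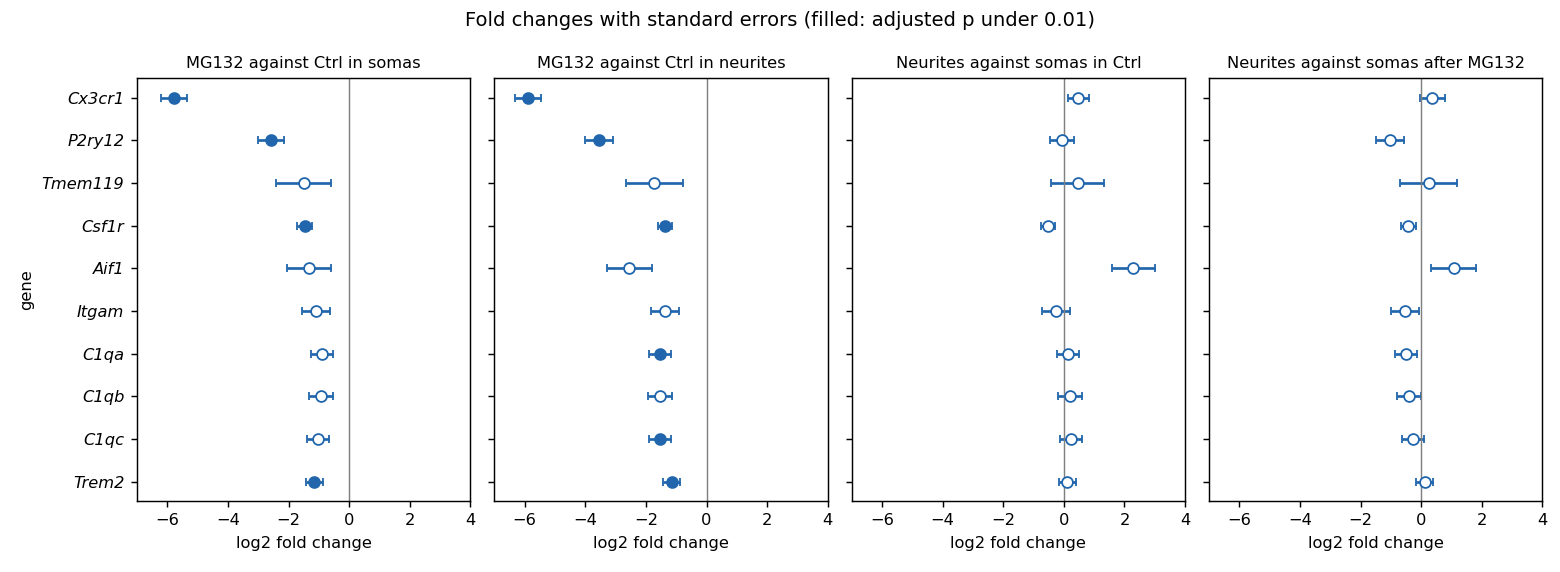
Log2 fold change of each gene with its standard error in 4 comparisons, filled where the adjusted p was under 0.01. All 10 genes lie left of 0 in both MG132 comparisons, with *Cx3cr1* at -5.77 and -5.88, and no point is filled in the 2 comparisons of neurites with somas.

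The summed level of the 10 genes was 735, 957 and 913 CPM in Ctrl somas and 235, 423 and 259 in MG132 somas. In neurites it was 737, 829 and 1425 CPM in Ctrl and 127, 276 and 320 after MG132. No MG132 library reached a Ctrl library of its fraction. As a share of all counted reads the 10 genes took 0.106 to 0.127% in Ctrl somas and 0.0319 to 0.0503% in MG132 somas. In neurites they took 0.0485 to 0.125% in Ctrl and 0.00849 to 0.0275% after MG132. The lowest library was MG132 neurites replicate 1 (556 reads, exact binomial 95% interval 0.00780 to 0.00923%, counting error only). Ctrl neurites replicate 1 held 0.0485%.

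The composition of the sum differed with treatment. *Cx3cr1* made up 23.5 to 29.3% of it in Ctrl somas and 27.8 to 35.0% in Ctrl neurites, against 0.561 to 2.53% in MG132 somas and 1.496 to 5.76% in MG132 neurites. The C1q genes together made up 40.4 to 48.1% in Ctrl somas and 55.8 to 71.3% in MG132 somas. In neurites their share was 40.0 to 48.4% in Ctrl and 54.3 to 67.8% after MG132.

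**Figure D3:**
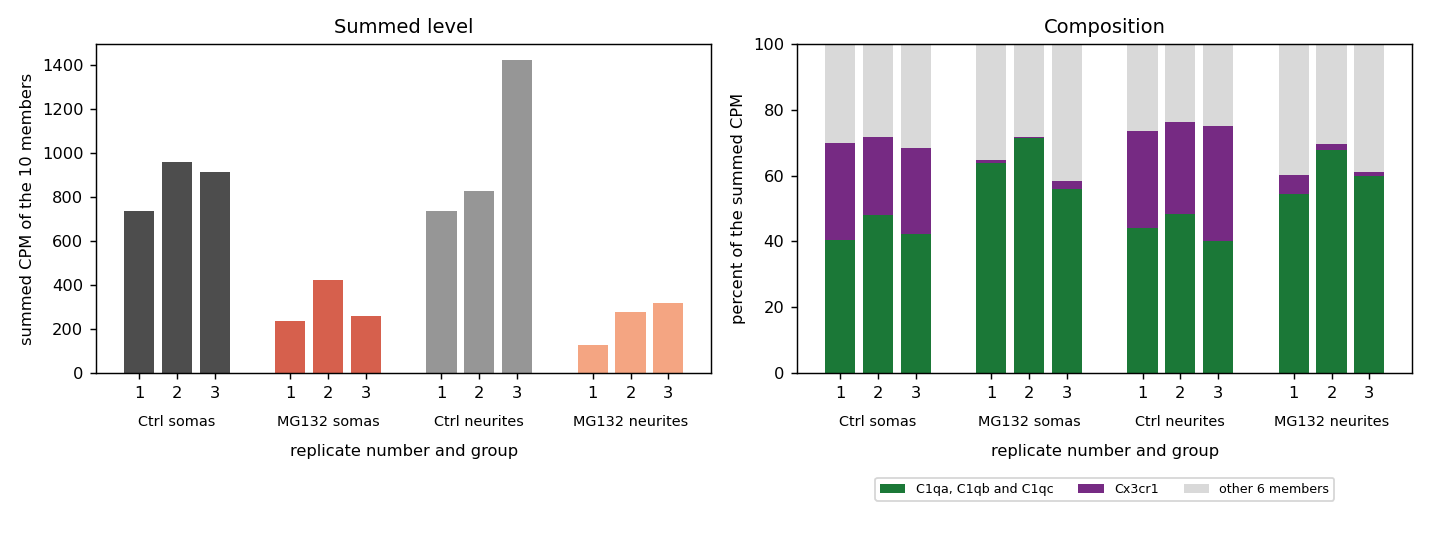
Left, summed CPM of the 10 genes in each library; right, the percent of that sum from the C1q genes, from *Cx3cr1* and from the other 6. The *Cx3cr1* share is 23.5% or more in each Ctrl library and 5.76% or less in each MG132 library.

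The next comparison asked whether the marker genes differed between neurites and somas. In Ctrl cultures 0 of 10 genes passed in either direction by edgeR and by DESeq2, where 6.31% of all genes were higher and 1.3% lower in neurites by edgeR. An unadjusted p under 0.05 was found for 2 of 10, against 27.6% of all genes, namely *Aif1*, 2.29 higher on the log2 scale in neurites (SE 0.72, adjusted p = 0.0441, higher in 3 of 3 pairs), and *Csf1r*, at -0.52 (SE 0.23, adjusted p = 0.160, lower in 3 of 3 pairs). With the replicate block *Aif1* passed (1.97, adjusted p = 0.00152), 1 of 10 where 10% of all genes rose. The other 8 genes lay between -0.26 (*Itgam*) and 0.48 (*Cx3cr1*), with standard errors of 0.29 to 0.88.

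These directions depended on the scaling. On total counts the median of all genes moved from -0.039 to -0.70 in Ctrl and from -0.082 to -0.86 after MG132, and the sign of 6 of the 10 genes turned in Ctrl and of 3 after MG132. The calls over all genes went from 895 higher and 185 lower to 179 higher and 936 lower in Ctrl, and from 1021 and 307 to 138 and 2115 after MG132. On total counts *Csf1r* passed as lower in neurites in Ctrl (-1.19, adjusted p = 0.00717) and after MG132 (-1.27, adjusted p = 0.00307), beyond the shifted median of all genes in both.

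After MG132 0 of 10 genes passed by edgeR and by DESeq2, where 7.2% of all genes were higher and 2.16% lower in neurites by edgeR. An unadjusted p under 0.05 was found for 1 of 10, against 30.9% of all genes, namely *P2ry12*, at -1.03 (SE 0.47, adjusted p = 0.145, lower in 3 of 3 pairs), and the groups did not overlap. *Aif1* gave 1.08 (SE 0.75, adjusted p = 0.360) and *Cx3cr1* 0.37 (SE 0.41, adjusted p = 0.586). The other 7 genes lay between -0.52 (*Itgam*) and 0.24 (*Tmem119*).

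Whether the response to MG132 differed between fractions was tested with the interaction of treatment and fraction. It passed for 0 of 10 genes by edgeR and for 0% of all genes, with 0 of the 10 and 1000 of 14185 genes at an unadjusted p under 0.05. DESeq2 called 0 of the 10 and 27 genes in all, and the replicate block 0 of the 10 and 21 in all. The smallest adjusted p among the 10 was 0.819, for *P2ry12*, at -0.98 (SE 0.61), a more negative change in neurites. *Aif1* gave -1.22 (SE 1.02), *C1qa* -0.63 (SE 0.50), *C1qb* -0.60 (SE 0.56), *C1qc* -0.49 (SE 0.51), *Itgam* -0.26 (SE 0.64), *Tmem119* -0.22 (SE 1.28), *Cx3cr1* -0.11 (SE 0.53), *Trem2* -0.0096 (SE 0.41) and *Csf1r* 0.10 (SE 0.33).

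Other genes of microglia and macrophages were read beside the 10. Of 27 tested, 8 fell and 0 rose in somas (median -1.08), and 8 fell and 0 rose in neurites (median -1.28). The replicate block gave 17 lower and 1 higher in somas, and 20 lower and 1 higher in neurites. *Slco2b1*, an organic anion transporter, went from 18.6 ± 4.01 to 0.742 ± 0.789 CPM in somas (-4.49, SE 0.67, adjusted p = 2.52e-04) and from 12.4 ± 1.82 to 0.788 ± 0.798 in neurites (-3.90, adjusted p = 7.61e-04). *Gpr34*, a lysophosphatidylserine receptor, went from 34.6 ± 10.8 to 1.77 ± 0.627 CPM in somas (-4.27, SE 0.45, adjusted p = 1.81e-05) and from 22.1 ± 2.62 to 2.04 ± 1.55 in neurites (-3.38, adjusted p = 7.75e-05).

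Among 23 tested ligands and partners of the marker genes, 1 fell in somas and 3 in neurites, and 0 rose. The fit with the block called 9 lower in each fraction. *Tgfbr2*, a TGF-β receptor, fell by 1.10 in somas (adjusted p = 0.00219), and *Inpp5d*, the phosphatase SHIP1, fell by 2.91 in neurites (adjusted p = 0.00442), as did *C5ar1*, a complement receptor, by 2.03 (adjusted p = 0.00208). *Tgfbr2* was the third gene that fell in neurites (-1.50, adjusted p = 2.47e-04).

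The log2 fold changes of *Cx3cl1*, *Csf1* and *Il34* lay nearer to 0 than those of their receptor genes *Cx3cr1* and *Csf1r*, a difference that was not tested. Other ligands and receptors of the list were not compared in this way. *Cx3cl1*, which encodes fractalkine, had 84.0 ± 13.9 CPM in Ctrl somas and 71.1 ± 19.7 in MG132 somas (-0.24, SE 0.27, adjusted p = 0.544). It had 41.9 ± 14.1 CPM in Ctrl neurites and 23.3 ± 5.42 in MG132 neurites (-0.85, SE 0.28, adjusted p = 0.0333). After MG132 *Cx3cl1* was lower in neurites than in somas (-1.62, SE 0.28, adjusted p = 8.99e-04).

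The ligands of CSF1R did not pass in either fraction. *Csf1* gave -0.073 in somas (SE 0.20, adjusted p = 0.828) and 0.099 in neurites (SE 0.21, adjusted p = 0.758). *Il34* gave -0.93 (SE 0.57, adjusted p = 0.251) and -0.78 (SE 0.56, adjusted p = 0.330), at 2.13 to 6.89 mean CPM per group. *Tyrobp*, the adaptor of TREM2, gave -1.08 in somas (SE 0.37, adjusted p = 0.0414) and -1.29 in neurites (SE 0.37, adjusted p = 0.0175).

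Complement genes downstream of C1q were also read. *C3*, the central complement component, had 1242 ± 483 CPM in Ctrl somas and 1058 ± 351 in MG132 somas (-0.23, SE 0.31, adjusted p = 0.622), and gave 0.37 in neurites (SE 0.31, adjusted p = 0.407). *Serping1*, the C1 inhibitor, gave -1.22 in somas (SE 0.39, adjusted p = 0.0303) and -0.42 in neurites (SE 0.39, adjusted p = 0.455).

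Of 18 disease-associated microglia genes, which mark the state microglia adopt around amyloid, 3 fell and 0 rose in somas, and 3 fell and 1 rose in neurites. The block gave 7 lower and 1 higher in each fraction. *Cd9*, a tetraspanin, gave -1.80 in somas and -1.698 in neurites (adjusted p = 5.94e-04 and 8.21e-04), and *Lpl*, lipoprotein lipase, gave -1.67 and -1.32 (adjusted p = 4.33e-04 and 0.00215). *Ctsl*, cathepsin L, rose by 0.95 in neurites (adjusted p = 0.00494).

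Of 16 inflammatory mediators tested, 6 rose and 0 fell in each fraction, with a median of 2.35 in somas and 2.59 in neurites, and the block gave 9 higher and 1 lower in somas and 9 higher and 0 lower in neurites. *Cxcl2*, a neutrophil-attracting chemokine, went from 0.272 ± 0.247 CPM in Ctrl somas to 73.3 ± 61.0 in MG132 somas (7.89, SE 0.95, adjusted p = 4.70e-05). *Ccl7*, a monocyte-attracting chemokine, rose by 6.77 in somas (adjusted p = 1.60e-04) and by 7.82 in neurites (adjusted p = 1.19e-04), and *Cxcl1* rose by 7.50 in neurites (adjusted p = 9.02e-05). The fold changes of these genes rest on 0 to 32 reads per Ctrl library.

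Markers of other cells moved with the treatment too. Of 10 astrocyte markers 7 fell in somas and 5 in neurites, with *Aqp4* at -2.36 and -1.45 (adjusted p = 3.45e-07 and 1.32e-05). Of 11 oligodendrocyte lineage markers 3 fell in somas and 4 in neurites, of 6 fibroblast markers 3 and 1, and of 5 endothelial and mural markers 2 and 1. *Pdgfra* is on both the oligodendrocyte lineage and the fibroblast lists, so their counts can share this gene. With the replicate block the counts were 9 and 8 for astrocyte, 8 and 8 for oligodendrocyte lineage, 6 and 3 for fibroblast and 2 and 2 for endothelial and mural markers. Of 5 cell division genes 0 passed in either fraction by edgeR (1 and 0 at an unadjusted p under 0.05, 1 and 0 by DESeq2, 3 and 2 with the block). Of 10 neuron markers 0 passed in either fraction, with medians of -0.20 and -0.15, 0 at an unadjusted p under 0.05 and 0 by DESeq2 in either, although the block called 1 lower in neurites. The summed astrocyte level was 4906 to 6102 CPM in Ctrl somas and 2543 to 3342 in MG132 somas, and 21005 to 26166 in Ctrl neurites and 9730 to 19923 in MG132 neurites. Of 4 tested markers of border macrophages, monocytes and neutrophils 0 passed by edgeR (1 in somas and 3 in neurites at an unadjusted p under 0.05, 1 and 1 by DESeq2, 2 and 3 with the block), with medians of -1.26 and -1.63. The summed level of all 13 listed markers of these cells, 75.5 to 149 CPM in Ctrl somas, overlapped that of 54.5 to 155 in MG132 somas. In neurites 68.5 to 218 CPM in Ctrl overlapped 48.8 to 88.6 after MG132. Single markers differed within this sum. Mean *Mrc1* went from 53.7 to 73.1 CPM in somas and from 37.1 to 37.7 in neurites. *Ms4a7* went from 44.1 to 16.9 CPM in somas, *F13a1* from 11.2 to 2.31 and *Pf4* from 8.18 to 3.87. Their means were lower after MG132 in neurites too. The part of these lists in the result for the marker genes was not tested.

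**Figure D4:**
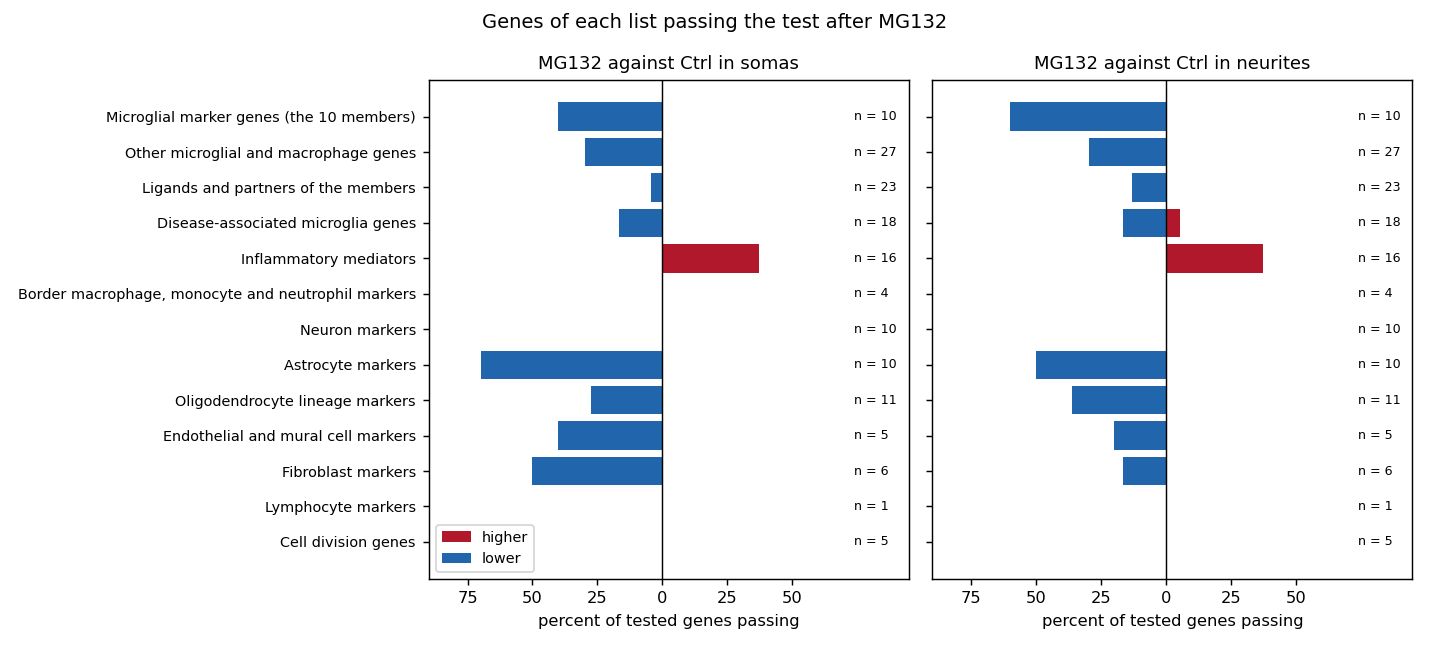
Percent of the tested genes of each list that passed at an adjusted p under 0.01 after MG132, lower to the left and higher to the right, with the number tested. Lists can share genes, such as *Pdgfra*. The microglial marker genes show 4 and 6 of 10 lower, and the inflammatory mediators 6 of 16 higher in both fractions.

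Genes outside the list were ranked by how closely they followed the 10 across the 12 libraries, as the Pearson correlation of log2 CPM with the mean standardised level of the 10, among 14175 genes. The 15 closest were *Myo1f*, *Inpp5d*, *Ccn5*, *Myo1e*, *Pbx2*, *Galc*, *Lpl*, *Havcr2*, *Ly6e*, *Slc44a2*, *Pygl*, *Mmp14*, *Tspan9*, *Evi2a* and *Rab3il1*, with r from 0.952 to 0.972. The 12 points share treatment and fraction, and 0 of these 15 were among the 15 closest when deviations from the group means were correlated instead.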

How the data were processed

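Per the labels and the study's methods, poly(A)-selected libraries were sequenced, trimmed with Trimmomatic 0.38.0, aligned to mm10 with STAR and counted with featureCounts 2.0.1 with default parameters. The deposited values are raw counts per Entrez gene, 1 file per library, without normalization. The methods name paired-end sequencing and single-end alignment, and no strand setting beyond the default parameters. Symbols were found for 93.0% of 27179 identifiers.

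Counts were filtered with filterByExpr, scaled with TMM and tested with edgeR 4.0.16 (R 4.3.3), using 4 group means fitted over 12 libraries and Benjamini-Hochberg adjustment over 14185 genes, with a threshold of 0.01. DESeq2 1.42.0, other scalings, filters, thresholds, sample sets and left-out libraries were alternatives. CPM uses TMM-scaled totals, and RPKM divides it by exon length of protein-coding basic GENCODE M21 transcripts. The test script was tested on simulated data. The members and lists were chosen with earlier results of these data known, and the text names all 10 members, at most the 2 passing genes with the largest log2 fold change per other list, comparison and direction, 6 fixed partners and the 15 closest genes. *Tgfbr2* in neurites was named beyond that rule, after its values were seen. So were *Mrc1*, *Ms4a7*, *F13a1* and *Pf4*, and the genes named for having no read. *Pdgfra* was named for its place in both the oligodendrocyte lineage and the fibroblast lists.

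Replicate numbers come from the sample titles. Deviations from group means of same-numbered libraries correlated at 0.126 to 0.233 in the 4 pairs of groups. Ctrl somas libraries matched their own number best in MG132 somas and in Ctrl neurites. Ctrl neurites and MG132 somas libraries did so in MG132 neurites. The reverse matches were not computed, so no MG132 neurites library was asked for its best match. The numbers were taken as pairing the samples, although the file name of MG132 neurites replicate 3 carries another date than the others of its number. No 2 of the 66 pairs of libraries were identical. Figures were drawn with matplotlib 3.10.9.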

Additional observations from a re-analysis of the deposited data

How the results depend on the processing

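Of 882 values of single members under the alternatives, 752 kept their direction and side of the threshold, 30 no longer passed, 31 passed newly and 69 changed sign. None of the 69 was in MG132 against Ctrl, and none passed (smallest adjusted p 0.215). The count of members lower in somas, 4, became 9 with the replicate block and 2 with a log2 fold change beyond 1.7, and was 3 without any 1 of the 6 libraries. Over all 14185 genes, 812 were lower in somas without block and 1560 with it. With 1 library left out 429 to 584 genes were lower. The count in neurites, 6, became 9 with the replicate block, 3 with only the groups compared and 2 with the log2 limit, and ranged from 3 to 6 in the fit without block with 1 library left out (3 without MG132 neurites replicate 1, Ctrl neurites replicate 2 or Ctrl neurites replicate 3). Over all 14185 genes, 804 were lower in neurites without block and 1613 with it. With only the groups compared 475 of 12655 genes were lower, and with 1 library left out 409 to 589. For the log2 limit the count over all genes was not computed in either fraction. In Ctrl, 1 member was higher in neurites with no count filter, the replicate block, only the groups compared or a threshold of 0.05. Over all genes, 914 of 20595, 1425 of 14185 and 697 of 13489 were higher in the first of these settings. At 0.05 this was not computed. On total counts and on nuclear totals 1 member was lower in Ctrl, as was 1 after MG132. Over all 14185 genes, 936 and 1174 were lower in Ctrl, and 2115 and 1355 after MG132. Nuclear totals here leave out the mitochondrial genes and also the single gene that took 12.4 to 33.4% of the reads. The summed level in Ctrl neurites against somas was -0.44 (log2) on total counts. Of the 15 closest genes 0 remained with deviations. In the other comparisons and directions the block gave the same count of members. On total counts the calls over all genes after MG132 in neurites were 482 higher and 538 lower, against 1385 and 804. The causes were not tested. Requiring 10 counts in each library left out *P2ry12*, *Tmem119* and *Aif1*, which then have no value.

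Sign changes in Ctrl neurites against somas were, on total counts, *Cx3cr1* -0.16, *Tmem119* -0.24, *C1qa* -0.49, *C1qb* -0.44, *C1qc* -0.40 and *Trem2* -0.52, and on nuclear totals -0.0072, -0.029, -0.33, -0.27, -0.24 and -0.35. After MG132 they were *Cx3cr1* -0.38, *Tmem119* -0.74 and *Trem2* -0.63 on total counts, and -0.031, -0.23 and -0.33 on nuclear totals. In the difference of the responses they were *Cx3cr1* 0.017 (DESeq2), 0.030 (no filter) and 0.11 (block), *Tmem119* 0.061 (block), *Csf1r* -0.081 (total counts), and *Trem2* 0.0096 (median-ratio), 0.020 (nuclear totals), 0.0099 (DESeq2) and 0.099 (no filter).

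With 1 library left out, values that crossed 0 ranged in Ctrl from -0.086 to 0.69 (*Cx3cr1*), -0.32 to 0.083 (*P2ry12*), -0.021 to 0.94 (*Tmem119*), -0.21 to 0.32 (*C1qa*), -0.11 to 0.33 (*C1qb*), -0.046 to 0.41 (*C1qc*) and -0.15 to 0.29 (*Trem2*). After MG132 they ranged from -1.39 to 1.47 (*Tmem119*), -0.13 to 2.04 (*Aif1*), -0.50 to 0.13 (*C1qc*) and -0.16 to 0.37 (*Trem2*). In the difference of the responses they ranged from -0.33 to 0.71 (*Cx3cr1*), -1.78 to 1.02 (*Tmem119*), -0.078 to 0.43 (*Csf1r*), -0.51 to 0.36 (*Itgam*) and -0.28 to 0.29 (*Trem2*). Low counts limit *Tmem119*, *P2ry12* and *Aif1*, which had 1 to 4 reads in at least 1 MG132 library.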
